A study of Mus musculus with 6 samples.

Results

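The genes described here encode the nuclear subunits of the mitochondrial respiratory chain and ATP synthase. They were chosen by symbol, with no measured value: a gene entered if the symbol in the array annotation began with Nduf followed by a, b, c, s or v and a digit, with Uqcr, with Cox4 to Cox8 or with Atp5, or if it was Sdha, Sdhb, Sdhc, Sdhd, Cyc1 or Cycs. The rule found 87 genes on 124 probes, out of 23808 named genes on the array. By textbook assignment 35 belonged to complex I, 4 to complex II, 9 to complex III, 18 to complex IV and 15 to complex V, and 1 was cytochrome c. The other 5 (Ndufa4l2, Cox7a2l, Atp5s, Atp5sl and Cox4nb) carry a matching symbol without being fixed subunits, and Ndufa4 was placed in complex IV, where its protein is now assigned.

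The study compared RAW264.7 cells, a mouse macrophage line, grown in DMEM with serum and antibiotics (control) with the same line given 50 µg/ml AEPS, a polysaccharide from the root of Actinidia eriantha, for 4 h. Each group had 3 samples, whose RNA went in 1 colour (Cy3) onto Agilent arrays. Both groups are 1 cell line. The labels name no separate cultures, so a p-value covers the spread between these samples, which may be technical.

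Complexes I to IV pass electrons from NADH and succinate to oxygen: complex I oxidises NADH, complex II oxidises succinate, complex III hands electrons from ubiquinol to cytochrome c, and complex IV reduces oxygen. Complexes I, III and IV pump protons, and complex V, the ATP synthase, lets them flow back to make ATP. Macrophages activated by bacterial products are known to shift towards glycolysis and to use electrons from the chain for oxidant production.

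In each group, replicates 1 and 2 came with the same scanner values and counted as 1 array. This left 2 distinct arrays per group. By the scan date in the file headers they fell into 2 sets, each with 1 array of each group. Each set is called a slide here, though no slide label was read. The authors' table of processed log2 values held 3 distinct samples per group. Its replicate 1 columns matched the scanner files of replicate 1, its replicate 2 columns matched those of replicate 3 and its replicate 3 columns matched none of the scanner files used here. Between 55.4% and 58.7% of spots on an array were well above background, and no spot was saturated. The array's 75th percentile signal was 398 and 284 in control and 577 and 482 in AEPS. Of 8 macrophage markers, 7 were above background on all arrays (Cd68, Adgre1, Lyz2, Csf1r, Itgam, Spi1 and Fcgr1) and Mrc1 was not. No epithelial marker of 4 was above background on both arrays of a group; of the T cell, B cell and fibroblast lists of 4 genes each, Cd3e and Lck, Cd79a, and Col1a2 and Col3a1 were. Their part in the results was not tested.

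Of the 87 genes, 84 had a probe well above background on both arrays of at least 1 group, and all 84 were above background on all 4 arrays. The 3 others, Cox7b2, Cox8b and Cox8c, are isoforms of complex IV known from testis or muscle. The array thus carried signal for each tested subunit of complexes I, II, III and V, and for 15 of 18 genes of complex IV.

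Promoter sequence was found for 70 of the 87 genes in the RefSeq table (GRCm38.p6), as 76 windows from 250 bases before to 50 bases after a gene's start. Nuclear respiratory factor 1 (NRF1), the ETS factor GABPA and YY1 are textbook regulators of respiratory genes. The NRF1 core TGCGCA, which reads the same on both strands, lay in 25% of the members' windows and in 7.76% of all 32851 windows. The ETS motif CCGGAAG, searched on both strands like the rest, lay in 21.1% against 8.86%, and the YY1 motif AAGATGG in 17.1% against 6.34%. The SP1 motif GGGCGG lay in 39.5% against 35.7% and TATAAA in 10.5% against 13.6%. The kappaB motif GGACTTTCC lay in 0 of 76 windows and in 0.344% of all windows. The NRF1 core was in 33.3% of complex I windows, 2 of 3 complex II windows, 20% of complex III windows, 15.4% of complex IV windows and 17.6% of complex V windows. These shares are descriptions of letters, with windows not matched for base composition. The 200 bases before the start are shown for 4 subunits that the results turn on, 1 higher (Ndufa10) and 3 lower (Ndufa11, Sdhb and Uqcrc1) with AEPS, read 5′ to 3′ on the gene's strand, with matches to the SP1 motif on the reverse strand in capitals.
Ndufa10 (GRCm38.p6, chr1:92473759-92473958, minus strand): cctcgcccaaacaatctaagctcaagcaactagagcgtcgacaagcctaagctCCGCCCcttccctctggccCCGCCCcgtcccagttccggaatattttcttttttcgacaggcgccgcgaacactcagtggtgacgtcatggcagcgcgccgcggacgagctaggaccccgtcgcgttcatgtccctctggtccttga
Ndufa11 (GRCm38.p6, chr17:56717562-56717761, plus strand): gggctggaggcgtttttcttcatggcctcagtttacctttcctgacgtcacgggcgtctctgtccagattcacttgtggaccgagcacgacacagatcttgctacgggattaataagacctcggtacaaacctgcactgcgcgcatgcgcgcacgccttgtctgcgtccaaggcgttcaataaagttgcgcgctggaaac
Sdhb (GRCm38.p6, chr4:140961071-140961270, plus strand): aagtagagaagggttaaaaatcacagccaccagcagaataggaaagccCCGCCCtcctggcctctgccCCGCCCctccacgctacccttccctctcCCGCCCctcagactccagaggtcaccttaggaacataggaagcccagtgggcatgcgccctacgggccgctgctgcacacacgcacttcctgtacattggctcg
Uqcrc1 (GRCm38.p6, chr9:108936448-108936647, plus strand): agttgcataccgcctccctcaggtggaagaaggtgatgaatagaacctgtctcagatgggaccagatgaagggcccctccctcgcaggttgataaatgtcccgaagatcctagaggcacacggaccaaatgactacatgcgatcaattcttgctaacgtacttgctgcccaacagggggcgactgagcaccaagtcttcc
The Ndufa10 window held 2 SP1 matches and the Sdhb window 3. Past the start, Sdhb held an ETS match at bases 6 to 12, and Uqcrc1 held 2 NRF1 cores at bases 29 to 34 and 35 to 40, counted from the start. The windows of Ndufa11 held none of the 6 motifs.

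The first question was whether the chain changed with AEPS as a whole or gene by gene. With 2 arrays a group, 0 of 84 genes passed limma's test at an adjusted p of 0.05, where 6.49% of all 25930 features did. The lowest adjusted p among them was 0.0736, for Ndufs1. At an unadjusted p under 0.05 there were 14 of 84, where 31.6% of all features passed. With the slide as a replicate block, which pairs the arrays, limma called 14 genes, 3 higher and 11 lower, against a background of 31.6% (13.2% higher and 18.4% lower). This block leaves fewer residual degrees of freedom. The lowest limma adjusted p of any feature in that fit was 0.0317, so its calls lie in a narrow range and hardly rank the genes. In the authors' table, with 3 samples a group, limma called 25, 7 higher and 18 lower, which was 29.8% of the 84 against a background of 33.4% (17.0% higher and 16.4% lower). With the table's replicate number as a block it called 37, 14 higher and 23 lower, against 49.8% (23.5% higher and 26.3% lower). The share of these genes called was thus below that of the array in each of these fits. In those of them that called any, more were lower than higher. Scaling to spiked-in control RNA called Ndufs1, Ndufa10 and Cox6a2, all higher, where 11.2% of all features were called. Quantile scaling called Ndufs1 and Ndufa10 higher and Uqcrc1 lower, also against 11.2%. Of the 14 genes called with the slide block, 13 were also called in the table in the same direction. The table's replicate 1 and 2 columns match these same arrays, so the fits share data and this overlap is not independent support. The same overlap over all features was not counted.

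In the table and in each of 6 runs without 1 of its samples, limma called the same 10 genes among those that passed: Ndufs1, Ndufa10 and Cox6a2 higher, and Ndufa11, Uqcrc1, Cyc1, Uqcr11, Atp5d, Atp5sl and Cox4nb lower. These 10 include subunits of complexes I, III, IV and V, and within complex I both directions occurred. The runs without 1 sample called 11 to 16 of the 84, where 21.6% to 28.7% of all features were called. In each run the share of the 84 was below that of all features. The share of all features called in every run was not counted, so the 10 genes have no background beside them. The lower count of 11 came without control replicate 2, AEPS replicate 2 or AEPS replicate 3 of the table, 13 genes without control replicate 3, 15 without AEPS replicate 1 and 16 without control replicate 1.

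**Figure D1:**
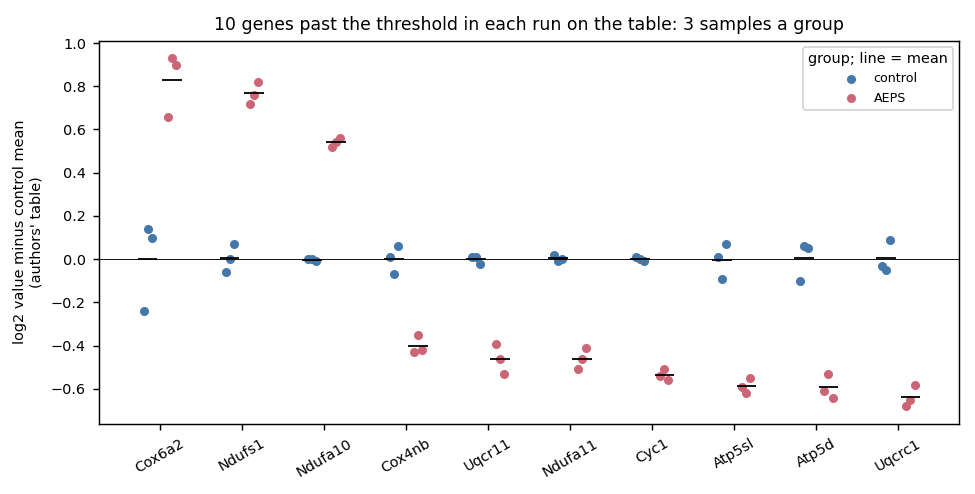
The 10 genes that passed in the authors' table and in each run without 1 of its samples, on the x axis, with the log2 value of each of the 3 control and 3 AEPS samples minus the control mean on the y axis and a line at each group's mean. For each gene all 3 AEPS samples lay on 1 side of all 3 control samples, as for all 25 genes called in the table. The genes were picked by calls on these same values, so this placing is no separate support. Of all features, 23.4% were so placed higher and 24.7% lower. The means ran from 0.83 for Cox6a2 to -0.64 for Uqcrc1.

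Direction depended on how the arrays were scaled, so each change is given relative to a scale. Relative to each array's 75th percentile, 64 of 84 genes (76.2%) had a log2 change below 0, where 58.1% of all named genes did, and 55 lay below the median of all named genes. Scaling to the spiked-in control RNA raised the median of all named genes by 0.64, and then 82 of the 84 lay above 0, all but Uqcrc1 (-0.05) and Ndufa4l2 (-0.14). The median of the subunits and cytochrome c was -0.21 on the 75th percentile scale and 0.42 on the spike-in scale. It was 0.10 below the median of all named genes on both scales, since the shift is the same for every gene. In the table it was -0.09, 0.07 below. "Lower" below means relative to the 75th percentile or within the table, and on the spike-in scale every such change among the 84 genes but those 2 turned its sign. The groups did not overlap on the 2 arrays each for 11 genes higher and 35 lower with AEPS, where 24.6% and 38.3% of all features were so placed. In the authors' values 14 were higher and 32 lower without overlap, against 23.4% and 24.7%.

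**Figure D2:**
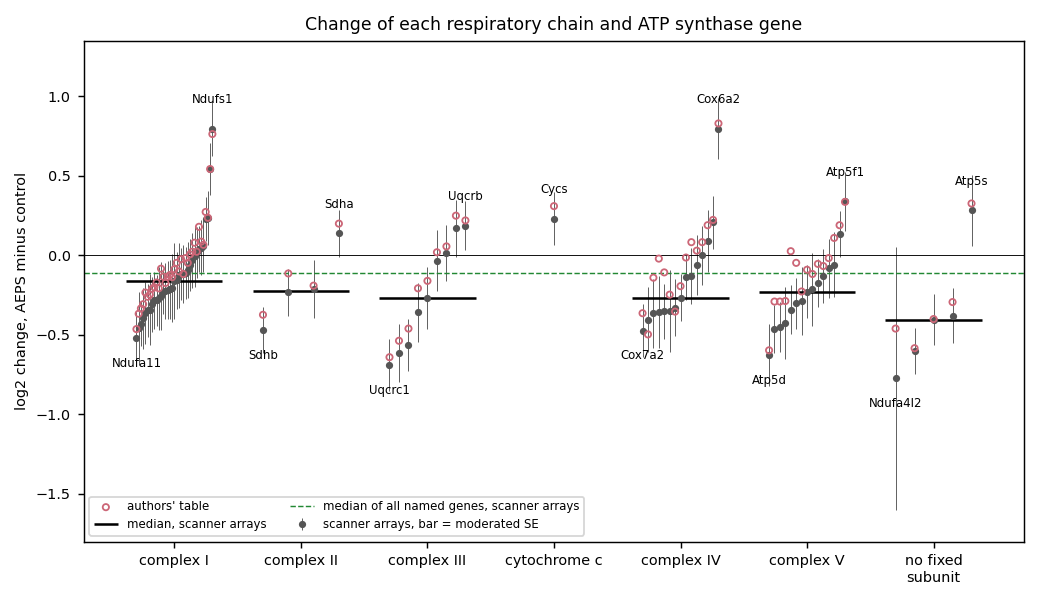
Log2 change with AEPS (y axis, AEPS minus control) of each tested gene by complex (x axis), as filled points with the moderated standard error from the 2 arrays a group scaled to the 75th percentile and as open circles from the 3 samples a group of the authors' table. Lines are complex medians and the dashed line is the median of all named genes (-0.11). Most filled points lie between 0 and -0.5, and Ndufs1 and Cox6a2 stand highest in complexes I and IV. On the spike-in scale all filled points would sit 0.64 higher.

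In complex I, calls went in both directions. The median of its 35 subunits was -0.16 on the 75th percentile scale, with 27 of 35 below 0, and 0.48 on the spike-in scale. In the table the median was -0.10, with 2 called higher and 5 lower. Together these were 7 of 35, a smaller share than the 33.4% of all features called there. By part of the enzyme the medians on the 75th percentile scale were -0.14 for the 8 tested subunits of the N module, which binds NADH, -0.10 for the 8 of the Q module, which reduces ubiquinone, and -0.21 for the 19 of the membrane arm.

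Ndufs1, the largest core subunit, carries iron-sulfur clusters of the N module. Its table values were 12.47, 12.53 and 12.60 in control and 13.25, 13.29 and 13.35 with AEPS, so every AEPS sample was higher. The rise was 0.76 ± 0.07 (SE, n = 3 a group, limma adjusted p = 0.00135). On the arrays it was 0.80 ± 0.17 (SE, n = 2, limma adjusted p = 0.0736 and 0.0321 with the slide block), with 0.78 on slide 1 and 0.81 on slide 2. On the spike-in scale the change was 1.43 (limma adjusted p = 0.0398). Ndufa10, an accessory subunit of the membrane arm, read 12.47, 12.47 and 12.46 in control and 12.99, 13.01 and 13.03 with AEPS. Its rise was 0.54 ± 0.06 in the table (SE, n = 3, limma adjusted p = 0.00211) and 1.18 on the spike-in scale (limma adjusted p = 0.0488), so both genes were higher on each scale.

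The membrane-arm subunit Ndufa11 moved the other way. It read 13.27, 13.24 and 13.25 in control and 12.74, 12.79 and 12.84 with AEPS, with no overlap, a change of -0.46 ± 0.06 (SE, n = 3, limma adjusted p = 0.00443). On the slides it was -0.55 and -0.49, and 0.12 on the spike-in scale. Ndufs7, a Q module core subunit with an iron-sulfur cluster next to the ubiquinone site, read 15.82, 15.99 and 15.99 in control and 15.48, 15.60 and 15.62 with AEPS. Its change was -0.37 ± 0.08 (SE, n = 3, limma adjusted p = 0.0231), and it was also called with the slide block. Ndufa8 was called with the slide block (-0.43, limma adjusted p = 0.0488) and just missed in the table (-0.33, limma adjusted p = 0.0516). Ndufv1, which binds NADH and flavin, was called in the table alone at -0.26 (limma adjusted p = 0.0267), as were the membrane-arm subunits Ndufb9 at -0.31 and Ndufa13 at -0.23.

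The core subunits Ndufv2, Ndufs8 and Ndufs3 passed in neither the table nor the slide block. Table changes were 0.08 for Ndufv2, -0.12 for Ndufs8 and -0.17 for Ndufs3. The core subunits named here thus ranged from 0.76 for Ndufs1 to -0.37 for Ndufs7 in the same samples.

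In complex II the catalytic subunits differed in sign. Sdha, the flavoprotein that oxidises succinate, read 13.77, 13.71 and 13.68 in control and 13.95, 13.87 and 13.94 with AEPS. Its change of 0.20 ± 0.07 (SE, n = 3) missed the table's threshold (limma adjusted p = 0.0682) and passed with the replicate block (limma adjusted p = 0.0412). Sdhb, the iron-sulfur subunit that takes the electrons onward, read 16.47, 16.32 and 16.44 in control and 16.09, 15.98 and 16.04 with AEPS. Every AEPS sample was lower than every control sample, with a change of -0.37 ± 0.07 (SE, n = 3, limma adjusted p = 0.0151), and it was called with the slide block at -0.47 on each slide. On the spike-in scale Sdhb was at 0.17 and Sdha at 0.78. The membrane anchors Sdhc (-0.19) and Sdhd (-0.11) did not pass in the table. The difference between Sdha and Sdhb was not tested as such.

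Complex III held the lowest median in the table, -0.16 over 9 subunits. There 3 were called lower and 1 higher, together 44.4% against 33.4% of all features. On the 75th percentile scale the median was -0.27 and on the spike-in scale 0.37. Uqcrc1, a core protein of the matrix side, read 14.32, 14.30 and 14.44 in control and 13.67, 13.70 and 13.77 with AEPS. This change of -0.64 ± 0.07 (SE, n = 3, limma adjusted p = 0.00253) was the lowest of the 84 genes in the table. On the slides it was -0.72 and -0.66, and quantile scaling also called it (-0.64, limma adjusted p = 0.0409). On the spike-in scale it was at -0.05.

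Its partner core protein Uqcrc2 was higher in the table, with 14.73, 14.78 and 14.80 in control and 14.99, 15.03 and 15.04 with AEPS. The change was 0.25 ± 0.06 (SE, n = 3, limma adjusted p = 0.0294), and on the arrays the groups overlapped. Cyc1, the cytochrome c1 subunit that delivers electrons to cytochrome c, read 15.77, 15.76 and 15.75 in control and 15.22, 15.25 and 15.20 with AEPS. Its change was -0.54 ± 0.06 (SE, n = 3, limma adjusted p = 0.00227) and 0.02 on the spike-in scale. The small subunit Uqcr11 fell in the table by 0.46 ± 0.07 (SE, n = 3, limma adjusted p = 0.00564), from 16.23, 16.23 and 16.20 to 15.83, 15.76 and 15.69. The Rieske iron-sulfur protein Uqcrfs1 had a change of 0.06 and did not pass.

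Cycs, the somatic cytochrome c that shuttles electrons to complex IV, was higher in the table. It read 15.57, 15.60 and 15.54 in control and 15.96, 15.82 and 15.86 with AEPS, a change of 0.31 ± 0.07 (SE, n = 3, limma adjusted p = 0.0214). On the slides the change was 0.34 and 0.12, and the slide block did not call it (limma adjusted p = 0.161). Its 2 tested probes gave 0.23 and 0.51 on the arrays.

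Complex IV gave no call among its core-binding subunits Cox4i1, Cox5a and Cox5b, whose table changes were -0.14, 0.08 and 0.03. The median over 15 tested genes was -0.27 on the 75th percentile scale, -0.02 in the table and 0.37 on the spike-in scale. The table's calls were 2 higher and 3 lower, together 33.3% against 33.4% of all features, and 3 of these 5 were tissue isoforms. Cox6a2, the heart and muscle isoform of subunit 6a, read 7.47, 7.85 and 7.81 in control and 8.37, 8.64 and 8.61 with AEPS. Its rise was 0.83 ± 0.14 in the table (SE, n = 3, limma adjusted p = 0.0084), 0.81 and 0.79 on the slides, and 1.43 on the spike-in scale (limma adjusted p = 0.0386). The general isoform Cox6a1 had a table change of -0.02.

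The other tissue isoforms had changes below 0. Cox7a1, the heart and muscle isoform of subunit 7a, read 11.06, 11.17 and 11.18 in control and 10.77, 10.81 and 10.77 with AEPS, a change of -0.35 ± 0.07 (SE, n = 3, limma adjusted p = 0.0129). Its general counterpart Cox7a2 was called lower too, at -0.36 (limma adjusted p = 0.0419). Cox6b2, the testis isoform of subunit 6b, was at -0.50 (limma adjusted p = 0.0445) and lost the call with the replicate block (limma adjusted p = 0.0809). The hypoxia and lung isoform Cox4i2 did not pass, with 9.78, 9.36 and 8.95 in control and 9.50, 8.93 and 8.92 with AEPS, so its groups overlapped. The general isoforms Cox6b1 (-0.19), Cox7b (0.08) and Cox8a (-0.11) did not pass in the table.

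Ndufa4, first described in complex I, read 14.49, 14.48 and 14.52 in control and 14.71, 14.77 and 14.68 with AEPS. The change was 0.22 ± 0.06 (SE, n = 3, limma adjusted p = 0.044) and did not pass with the slide block (limma adjusted p = 0.115). Counting Ndufa4 in complex I left the complex I median on the 75th percentile scale at -0.16 and moved that of complex IV to -0.30.

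In complex V, 1 gene was called higher and 3 lower in the table, together 26.7% against 33.4% of all features. On the 75th percentile scale the median over 15 subunits was -0.23, in the table -0.07 and on the spike-in scale 0.41. By part it was -0.34 for the 5 subunits of F1, the catalytic part, and -0.45 for the 3 genes of the c ring. For the 4 tested subunits of the peripheral stalk it was -0.02, with 2 above 0 and 2 below. In the table these medians were -0.09, -0.29 and 0.07. Atp5d, the delta subunit of the central stalk, read 15.24, 15.40 and 15.39 in control and 14.73, 14.81 and 14.70 with AEPS. Its change was -0.60 ± 0.08 (SE, n = 3, limma adjusted p = 0.00382), -0.58 and -0.67 on the slides and 0.01 on the spike-in scale.

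Atp5g1, Atp5g2 and Atp5g3 encode the same mature c subunit with different import sequences. Atp5g1 read 17.11, 17.00 and 17.07 in control and 16.84, 16.71 and 16.76 with AEPS, and Atp5g3 read 16.92, 16.80 and 16.84 in control and 16.57, 16.57 and 16.55 with AEPS. Both were called lower in the table at -0.29 (limma adjusted p = 0.0292 and 0.022), and with the slide block, while on the spike-in scale they were at 0.18 and 0.19. Atp5g2 was at -0.05 and did not pass. The F1 subunits Atp5a1 (-0.07), Atp5b (0.03) and Atp5c1 (-0.09) did not pass in the table.

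Atp5f1, subunit b of the peripheral stalk and now named Atp5pb, was higher in the table. It read 14.11, 14.17 and 14.08 in control and 14.44, 14.54 and 14.39 with AEPS, a change of 0.34 ± 0.07 (SE, n = 3, limma adjusted p = 0.019), with 0.32 and 0.36 on the slides.

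Among the genes without a fixed place in a complex, Atp5sl (now Dmac2), a factor of distal complex I membrane-arm assembly, read 12.03, 11.93 and 12.09 in control and 11.43, 11.40 and 11.47 with AEPS. The change was -0.58 ± 0.07 (SE, n = 3, limma adjusted p = 0.00328) and 0.04 on the spike-in scale. Cox4nb (now Emc8), a subunit of the endoplasmic reticulum membrane complex whose symbol came from its gene neighbour, was at -0.40 ± 0.07 (SE, n = 3, limma adjusted p = 0.0096). Cox7a2l, which joins complexes III and IV, was at -0.29 (limma adjusted p = 0.0166). Ndufa4l2, a paralogue of Ndufa4 induced in hypoxia, read 6.25, 4.42 and 4.91 in control and 5.11, 4.43 and 4.66 with AEPS and did not pass.

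The complexes were then set side by side under each scaling. Relative to the median of all named genes on the 75th percentile scale, complexes I to V lay at -0.05, -0.11, -0.16, -0.15 and -0.12. In the table the same differences were -0.08, -0.13, -0.14, 0.00 and -0.04, so complexes IV and V came nearer to the other genes there while complexes II and III stayed below. The order of the complexes was thus not the same on both scales, and no test of the difference between complexes was made.

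**Figure D3:**
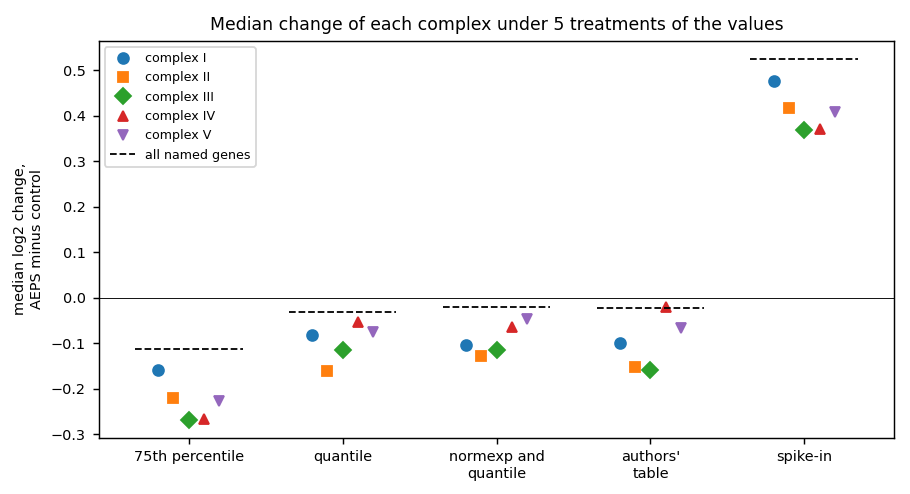
Median log2 change (y axis, AEPS minus control) of complexes I to V as coloured points under each treatment of the values (x axis), with the dashed line at the median of all named genes. On all but the spike-in scale the medians lie below 0, and there they lie between 0.37 and 0.48, with all named genes at 0.52. Complex IV moves from -0.27 to -0.02 between the 75th percentile scale and the authors' table.

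The gap between scalings grew with a probe's brightness. Cox6a1 moved from -0.36 on the 75th percentile scale to 0.02 with quantile scaling, Atp5b from -0.34 to -0.03 and Atp5g2 from -0.30 to -0.01. Among the 28 members with the brightest probes the median move was 0.14, and it was 0.08 and 0.03 for the next 28 and the dimmest 28. The 6 brightest probes of the set belong to complexes IV and V, while the dim probe of Ndufa4l2 moved by 0.21 as well.

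**Figure D4:**
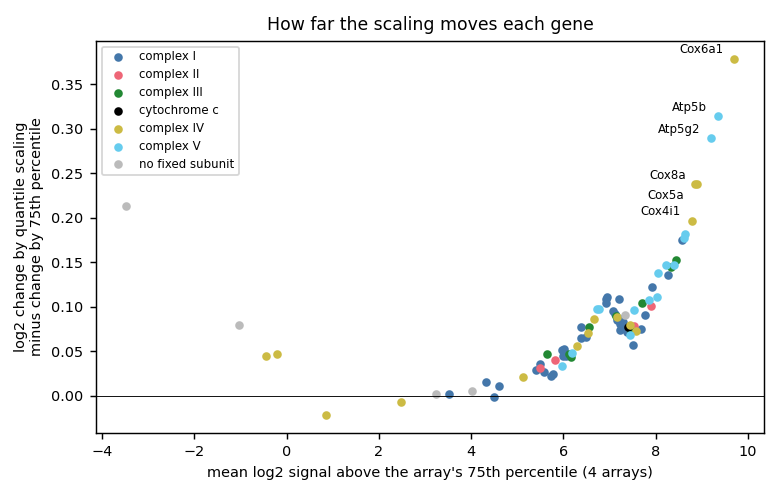
Log2 change by quantile scaling minus that by the 75th percentile (y axis) against the mean log2 signal of the gene's probe above the array's 75th percentile (x axis, mean of 4 arrays), 1 point per tested gene coloured by complex. Among probes above about 5 on the x axis the points climb to the right, and Cox6a1 stands highest at 0.38. A probe's signal is not compared between genes as a level of expression.

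Other genes of the pathway were counted from fixed lists. Of 54 assembly factors 49 were tested, with 0 called on the arrays (6.49% of all features) and 12 higher and 10 lower in the table, together 44.9% against 33.4% of all features. Complex I factors differed in sign: Ndufaf4 was at 0.64 (limma adjusted p = 0.00536) and Timmdc1, of the membrane arm, at -0.60 (limma adjusted p = 0.0375). Sdhaf3 (0.81) and Sdhaf4 (0.38) of complex II were called higher, as was Lrpprc (0.58), which stabilises mitochondrial mRNA. Of the complex III factors, Ttc19 (0.79) was called higher and Uqcc3 (-0.48) and Bcs1l (-0.32) lower. Of the 20 genes of ubiquinone synthesis and other electron donors, 5 were called higher and 8 lower in the table, together 65.0% against the same 33.4%. On the arrays 1 was called, Coq8a, a kinase-like protein of ubiquinone synthesis, at -1.08 ± 0.17 (SE, n = 2, limma adjusted p = 0.0469), with -0.44 on the spike-in scale. Its log2 values relative to the 75th percentile were -2.67 and -2.40 in control and -3.56 and -3.67 with AEPS.

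Regulators of respiratory genes gave 2 calls among 20 tested on the arrays, or 10.0% against 6.49% of all features. Gabpa, the DNA-binding subunit of the ETS factor, rose from -0.94 and -0.78 in control to 0.45 and 0.46 with AEPS, a change of 1.32 ± 0.15 (SE, n = 2, limma adjusted p = 0.0296) and 1.96 on the spike-in scale. Ppargc1b, a coactivator of mitochondrial biogenesis, fell by 1.46 ± 0.20 (SE, n = 2, limma adjusted p = 0.0382), from -1.05 and -0.80 to -2.56 and -2.22, and was at -0.83 on the spike-in scale. In the authors' values 4 of the 20 were called higher and 6 lower, together 50.0% against 33.4% of all features. Tfam, which packages mitochondrial DNA, was among the higher at 0.54, and Polg2 and Twnk, of its replication, were lower at -0.75 and -0.74. Nrf1 (-0.03) and Yy1 (0.06) did not pass there. The ETS motif lay in 0 of 4 windows of members called higher in the table and 2 of 17 of those called lower, against 8.86% of all windows. A link between Gabpa and the members was not tested.

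The change in the paralogue AA467197 (Nmes1), a protein related to NDUFA4, was far outside the range of the subunits. On both control arrays its probe was not well above background (-6.68 and -6.69), and with AEPS it read -2.44 and -2.09. The level was at least 4.85-fold higher, with the control level set at the dimmest signal above background, and limma's adjusted p was 0.00739, from a comparison with control readings that were not above background. In the table it read 1.54, 1.58 and 1.58 in control and 5.96, 6.65 and 6.52 with AEPS.

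**Figure D5:**
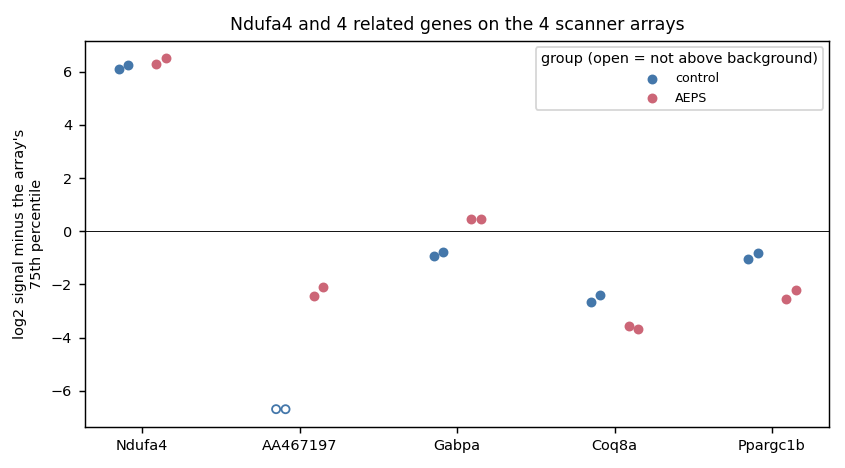
Log2 signal minus the array's 75th percentile (y axis) of Ndufa4, its paralogue AA467197 and 3 related genes (x axis) on the 2 control and 2 AEPS arrays, with open points where the probe was not well above background. AA467197 goes from -6.68 to -2.27 in the mean, while Ndufa4 lies between 6.1 and 6.5 on all arrays; heights are not compared between genes.

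The subunits were last set beside other large protein assemblies. Of 77 tested mitochondrial ribosomal protein genes, 11 were called higher and 22 lower in the table, with a median of -0.04. Of 39 tested proteasome subunits, 17 were called higher and 3 lower, with a median of 0.20. Of 108 tested cytosolic ribosomal protein genes, 13 were called higher and 4 lower, with a median of 0.07 in the table and -0.27 on the 75th percentile scale. The respiratory subunits and cytochrome c stood at 7 higher and 15 lower of 79, with a median of -0.09. Called shares were 42.9%, 51.3%, 15.7% and 27.8% in this order, against 33.4% of all features, and no test compared the groups.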

How the data were processed

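The authors' scanner files gave spot intensity (Cy3), extracted with Agilent Feature Extraction 10.7.1.1 per the file headers; the authors' deposited table gave log2 values of 3 samples a group, with the same median (4.71) in every column and its normalization not given in the sources used here. Identical files counted as 1 array. The processed intensity was taken as log2, minus each array's 75th percentile, control and outlier-flagged spots left out. Tests covered probes with signal well above background on both arrays of at least 1 group, and a gene was read from its brightest tested probe. Differences were tested with limma 3.58.1 (R 4.3.3), lmFit and eBayes, Benjamini-Hochberg over 25930 features, threshold 0.05; the table was tested the same way. On simulated data with 2000 changed genes the 2-array design recovered 44.1% of 2-fold and 74.7% of 4-fold changes, and with 200 changed genes 0%; 3 samples recovered 68.8% and 93%, and with 200 changed 41% and 72%. The number of arrays limits the precision. Replicate numbers were taken to pair the samples, though the labels state no pairing. In the table, deviations of same-numbered samples correlated at 0.58, 0.39 and 0.41, and those of other pairs at -0.50 to 0.24. Centring on the group mean pulls these other values down. Deviations of arrays on 1 slide correlated at 0.62. With 2 arrays a group they mirror each other, so this is a single value. The members and lists were chosen with earlier results of these data known. Genes were named with values if called on the arrays or with the slide block, if highest, lowest or among the 3 lowest adjusted p of the table in their complex, or if a core subunit or isoform; 1 gene that the rule names is not reported here. The related lists held assembly factors, ubiquinone genes, regulators and carriers. Alternatives tried were normexp background correction (offset 50), quantile and spike-in scaling, other filters, the mean of probes, a variance trend, replicate blocks, the table and leaving out samples. Symbols came from the array annotation, and promoters from RefSeq.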

Additional observations from a re-analysis of the deposited data

How the results depend on the processing

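The count of genes called on the arrays (0 of 84) moved with the processing: normexp gave 4 (background 14.1%), quantile scaling 3 (11.2%), spike-in scaling 3 (11.2%), the 75th percentile of detected probes 12 (20.8%), a variance trend 9 (17.5%), the slide as replicate block 14 (31.6%), the authors' values 25 (33.4%) and those with the replicate block 37 (49.8%). Leaving out samples gave 0 to 16 called (1.79% to 28.7%). Testing all probes gave 0, where 0.0% of all features passed. Requiring signal on every array, averaging probes or keeping flagged spots gave 0 too (8.38%, 6.43% and 6.47%). At an unadjusted p under 0.05 in limma with 2 arrays a group there were 14 (31.6%). The percentile of detected probes hardly moved the changes (median of the subunits -0.21) but lowered their standard errors, that of Ndufs1 from 0.175 to 0.0793, of Atp5d from 0.196 to 0.101 and of Sdhb from 0.145 to 0.0838. Spike-in scaling moved the medians to 0.42 for all subunits, 0.48 for complex I, 0.42 for II, 0.37 for III, 0.37 for IV and 0.41 for V. The complex IV median became -0.0647 with normexp, -0.0545 with quantile scaling and -0.02 in the table, with or without the replicate block. That of complex V became -0.0465, -0.0756 and -0.0667. Without 1 sample the medians ran from -0.32 to -0.07 for all subunits, -0.27 to -0.03 for complex IV and -0.40 to -0.0533 for complex V, each below 0; the cause was not tested. Of 45 named genes, 31 changed sign with spike-in scaling, 4 each with normexp, quantile scaling and the table. Among them Cyc1, Atp5d, Uqcr11, Sdhb and Atp5g1, called lower in the table, lay at 0.02, 0.01, 0.07, 0.17 and 0.18 with spike-in scaling. With 2 arrays a group and a residual of 2 degrees of freedom, an unchanged gene and a gene below the test's reach cannot be told apart.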

Other observations

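Of 18 tested genes of mitochondrial carriers, channels and membrane factors, 3 were called higher and 2 lower in the authors' table, together 27.8% against 33.4% of all features. The higher ones were AA467197 and the fusion genes Opa1 (0.25) and Mfn1 (0.41). The lower ones were Vdac1, the main channel of the outer membrane, at -0.44 (limma adjusted p = 0.0198), and Chchd10, of the intermembrane space, at -0.46 (limma adjusted p = 0.00417). The ATP and phosphate carriers Slc25a4 (0.03), Slc25a5 (0.15) and Slc25a3 (0.10) did not pass, nor did the uncoupling gene Ucp2, at -0.04 on the 75th percentile scale.

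Enzymes that feed electrons to ubiquinone outside complexes I and II differed in sign in the table. Gpd2, the mitochondrial glycerol phosphate dehydrogenase, was at 0.74 (limma adjusted p = 0.00119), and Dhodh, of pyrimidine synthesis, at -0.82 (limma adjusted p = 0.00282). Within the ubiquinone group Coq10b was at 0.85 and its paralogue Coq10a at -0.69. On the spike-in scale Gpd2 was at 1.42, Dhodh at -0.18, Coq10b at 1.5 and Coq10a at 0.00.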
